A study of Ovis aries with 2 samples.

Results

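CXCL12 and CXCL14 are secreted CXC chemokines, and their 2 genes were taken from the 18161 genes of the table by name, together with CXCR4 and ACKR3, the 2 receptors of CXCL12. All 4 genes were followed across 14037 single cells of lamb skin. The cells came from Hu Sheep at 3 days of age, with straight wool in one group and curly wool, labelled as waved, in the other. Skin of 3 lambs was pooled for each wool type, suspensions of isolated follicles and of whole skin were mixed, and each pool gave 1 10× Genomics library. No transgene, drug or other treatment is named for either group.

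CXCL12 signals through CXCR4, a G protein-coupled receptor that guides migrating cells and holds them in niches, whereas the atypical receptor ACKR3 binds the same chemokine and removes it from the surroundings. In skin, CXCL12 is known from fibroblasts, the dermal papilla and vessels. CXCL14 is a strongly conserved chemokine of epithelia, abundant in epidermis and hair follicles, and its receptor has remained a matter of debate.

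The straight library held 6452 cells with 57956122 unique molecular identifiers (UMIs, each a counted transcript molecule), and the curly library held 7585 cells with 77634565 UMIs. The median depth was 7373.5 and 7495 UMIs per cell. Both libraries shared 70 cell barcodes. Levels are given as CPM, that is UMIs of a gene per 1000000 UMIs of the same group of cells, with exact Poisson 95% intervals that cover counting error only. With 1 library per wool type there was no spread between lambs to test against, so differences between straight and curly compare these 2 libraries and carry no p-value.

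The cells fell into 20 clusters, built without the chemokine and receptor genes, of which 14 could be named from marker genes. Dermal papilla cell (DPC)-like cells, the mesenchymal cells at the base of the follicle, numbered 1287 in straight and 716 in curly, and their 5 DPC markers summed to 11769 and 16642 CPM. Hair follicle stem cell (HFSC)-like cells numbered 341 and 592 and passed the naming limit narrowly, with a score of 1.55 against a limit of 1.5. Without integration of the libraries the DPC-like cells fell into one cluster of 1244 straight and 27 curly cells and another of 46 and 685, and the HFSC-like cluster held 25 straight and 847 curly cells. The pairing of these classes across libraries therefore rested on the integration.

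CXCL12 was concentrated in 3 clusters of unlike kind, namely endothelial-like cells, an unnamed cluster rich in the keratin gene KRT6A, and DPC-like cells. In the straight library its level was 161.6 CPM (140.5 to 184.9) in the 192 endothelial-like cells. It was 154.4 CPM (138.2 to 172.0) in the 221 cells of the KRT6A-rich cluster 7 and 138.6 CPM (130.6 to 147.1) in DPC-like cells. The intervals of neighbours in this order overlapped, so the straight library gave no clear order among them. In the curly library the order was separated beyond counting error, at 217.5 CPM (187.6 to 251.0) in 166 endothelial-like cells, 162.5 CPM (153.7 to 171.6) in 483 cells of cluster 7 and 83.2 CPM (73.5 to 93.9) in DPC-like cells. Pericyte-like cells, which wrap small vessels, followed at 26.2 and 49.5 CPM, from 10 and 34 UMIs. Over all clusters ranked, the median CXCL12 level was 2.93 CPM in straight and 3.95 CPM in curly.

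**Figure D1:**
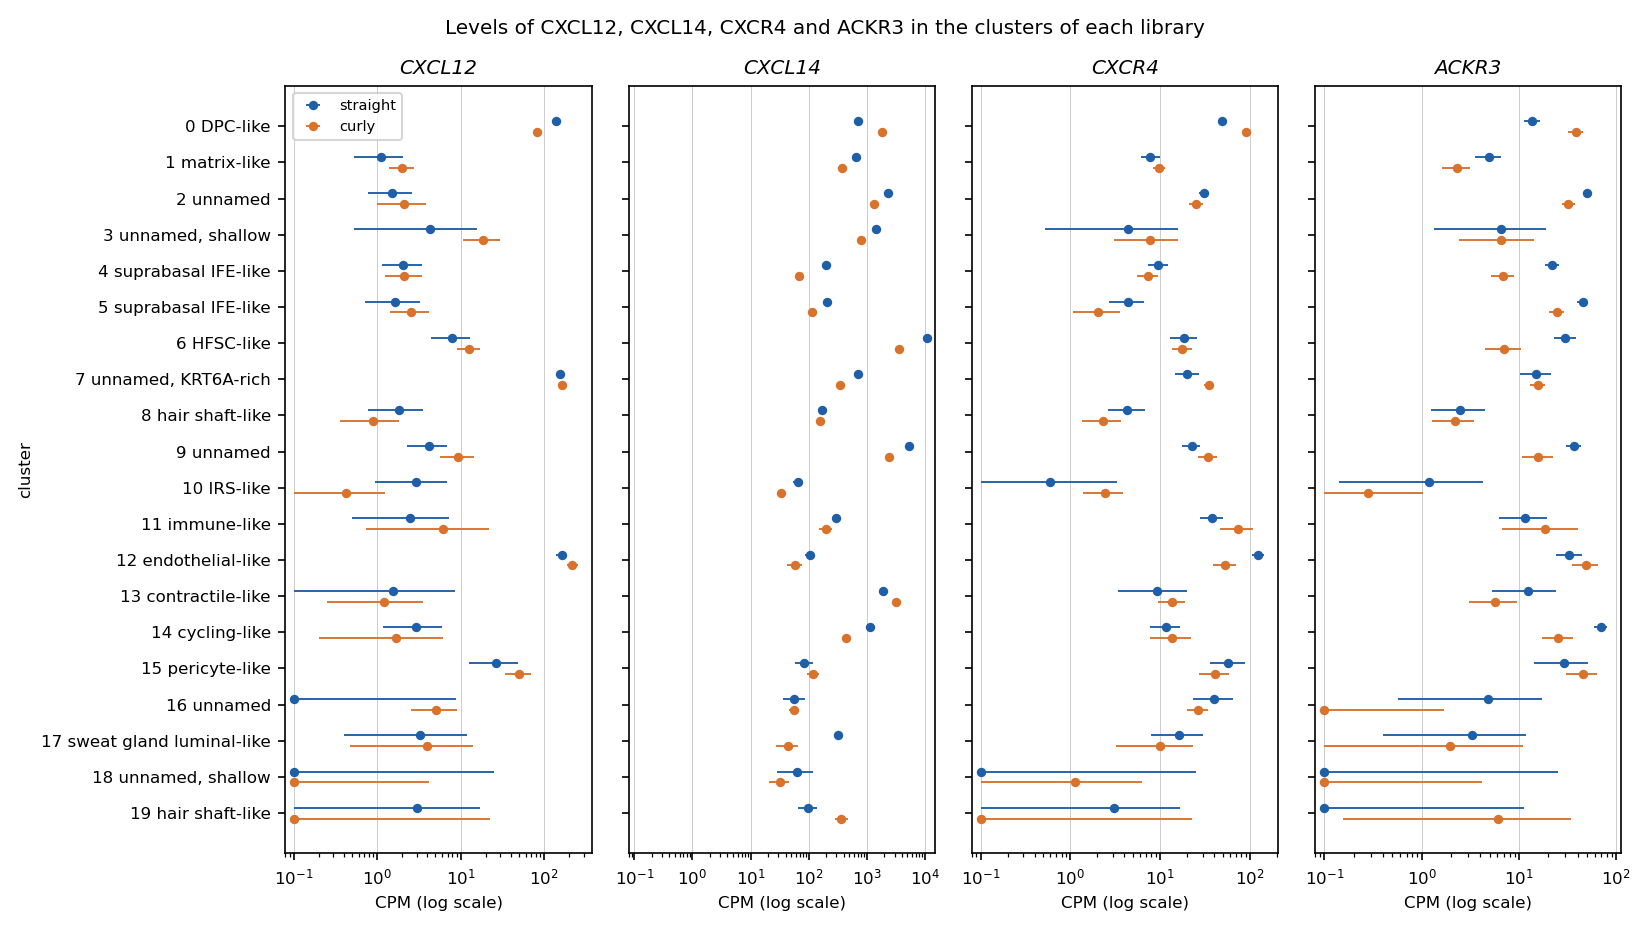
Level of CXCL12, CXCL14 and the receptors CXCR4 and ACKR3 (CPM, log scale) in the 20 clusters of the straight and curly libraries, with exact Poisson 95% intervals as bars. A level of 0 is drawn at 0.1 CPM. CXCL12 stands out in clusters 0, 7 and 12, whereas CXCL14 is highest in the HFSC-like cluster 6, with 10706 CPM (straight) and 3640 CPM (curly).

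The bulk of the CXCL12 UMIs lay in different cells of each library. In straight, 63.0% of the 1760 CXCL12 UMIs came from DPC-like cells and 18.7% from the KRT6A-rich cluster. In curly, 13.6% of the 1947 UMIs came from DPC-like cells and 65.4% from the KRT6A-rich cluster. Endothelial-like cells gave 11.99% and 9.66%. These shares follow the number and depth of the cells captured as well as the level per cell. DPC-like cells were fewer in curly, and the cells of cluster 7 were deeper in curly, with a median of 17265 UMIs per cell against 7115. At the level of the whole library CXCL12 stood at 30.4 and 25.1 CPM, a log2 ratio of curly over straight of −0.28 (−0.37 to −0.18).

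**Figure D2:**
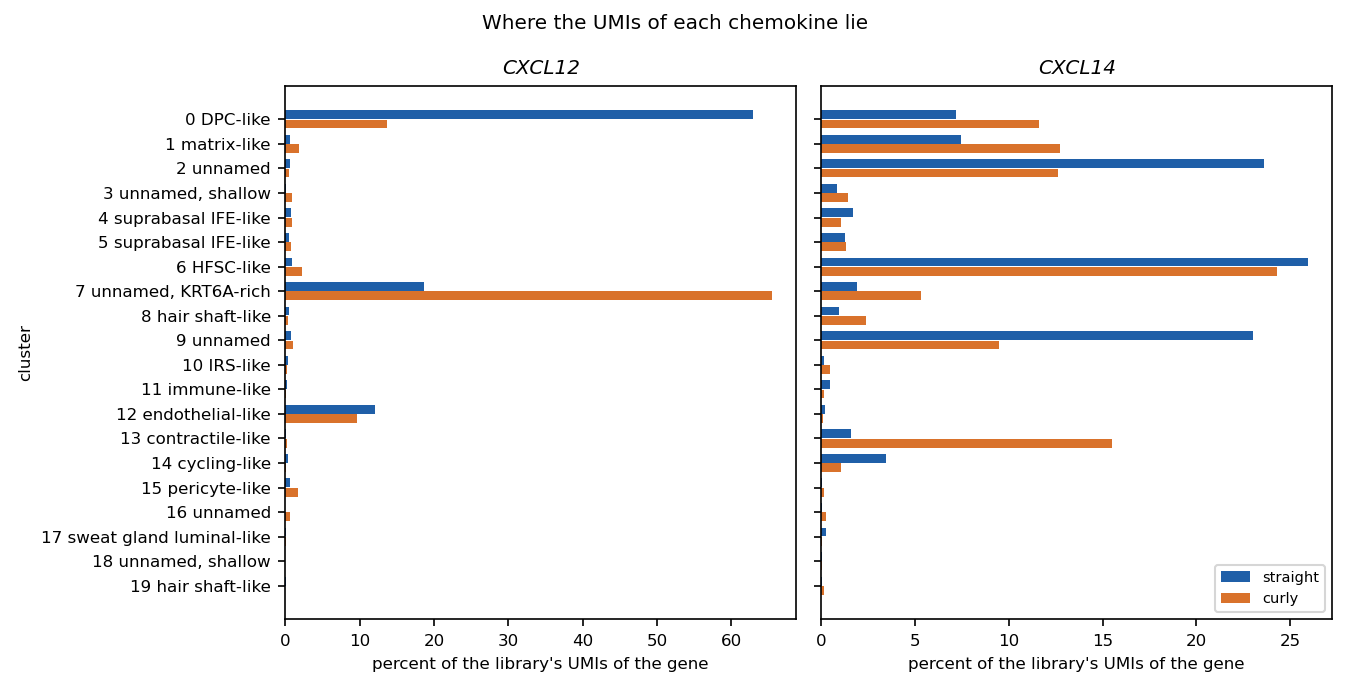
Share of each library's CXCL12 and CXCL14 UMIs (percent) that lay in each of the 20 clusters, straight in blue and curly in orange. DPC-like cells held 63.0% of the CXCL12 UMIs in straight, and the KRT6A-rich cluster held 65.4% in curly, while CXCL14 was spread over keratinocyte clusters and, in curly, the DPC-like and contractile-like cells.

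A finer clustering, at resolution 0.8, divided the DPC-like class into clusters 1 and 4, and a small fibroblast-like cluster 25 with COL1A1, COL3A1 and LUM, genes of the collagenous dermal matrix, came away from it. Leading genes, set against all other clusters, included HHIP, FGF7 and EDN3 in cluster 4, the last of these encoding a signal to melanocytes. Those of cluster 1 included CRABP1, APOD, IGFBP3 and WIF1, and RSPO3 was among those of both. APOD and IGFBP3 were higher in cluster 1 in straight only. In curly they were at 3608 and 6324 CPM in cluster 1 and at 4696 and 8430 CPM in cluster 4. CXCL12 was mainly in cluster 4. Its level there reached 202.1 CPM in straight and 176.7 in curly, against 36.6 and 19.3 CPM in cluster 1, so that it was 5.52-fold and 9.13-fold higher in cluster 4. A CXCL12 UMI was found in 64.8% (60.7 to 68.7, exact Clopper-Pearson) of the straight and 43.4% (36.1 to 50.9) of the curly cells of cluster 4, and in 12.3% and 7.07% of cluster 1. In suprabasal interfollicular epidermis (IFE)-like keratinocytes, where CXCL12 would not be looked for, the share was 2.16% and 1.76% at a median depth of 11670.5 and 10702 UMIs, compared with 8115.5 and 5767 in cluster 4.

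CXCL14 showed the opposite pattern between the same cells. Its level in cluster 1 was 1670 CPM in straight and reached 2860 in curly, and in cluster 4 it was 61.2 and 86.0 CPM, which made it 27.3-fold and 33.2-fold higher in cluster 1. Within cluster 1, CXCL14 was detected in 46.9% of the straight cells with a CXCL12 UMI and in 74.0% of those without one, although the cells with CXCL12 were deeper (median 5976 against 4079 UMIs). In curly the shares were 58.8% and 71.6%. Within cluster 4 of the straight library the shares were close to each other, at 30.2% and 30.7%. Free RNA from keratinocytes was measured by the basal keratin KRT5. Cluster 4 had 0.219 CXCL14 UMIs per KRT5 UMI in straight, close to the 0.203 of the whole library, whereas cluster 1 had 2.03. In curly these ratios were 0.213, 0.120 and 2.90.

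The receptors also differed between these DPC-like clusters. CXCR4 was at 108.3 CPM in cluster 1 and 11.3 CPM in cluster 4 in straight, and at 124.0 and 37.9 CPM in curly, which was 9.56-fold and 3.27-fold higher in cluster 1. CXCR4 was thus higher in the cluster with more CXCL14 and less CXCL12, the ligand it binds. Cells of cluster 1 with a CXCL14 UMI had CXCR4 in 30.5% of cases in straight and 34.4% in curly, compared with 16.6% and 22.7% of the cells without one. These shares were not matched for depth. ACKR3 did not separate the clusters, at 12.7 and 13.8 CPM in straight (log2 ratio of cluster 4 over cluster 1 of 0.12, −0.47 to 0.72) and 37.7 and 28.7 CPM in curly (−0.39, −1.05 to 0.23).

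Other genes went with this division. FGF7, an epithelial growth factor, was at 213.3 CPM in cluster 1 and 1077 CPM in cluster 4 in straight, and at 84.3 and 834.4 CPM in curly. LUM, a small collagen-binding proteoglycan, was at 300.6 and 3.77 CPM in straight, and its curly levels were 171.1 and 0 CPM. KRT5 was 2.94-fold and 2.44-fold higher in cluster 1, a smaller difference than that of CXCL14, and its part in the result was not tested. The 2 clusters took unequal shares of the libraries. Of the DPC-like cells in clusters 1 and 4, 46.9% were in cluster 4 in straight and 27.5% in curly.

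**Figure D3:**
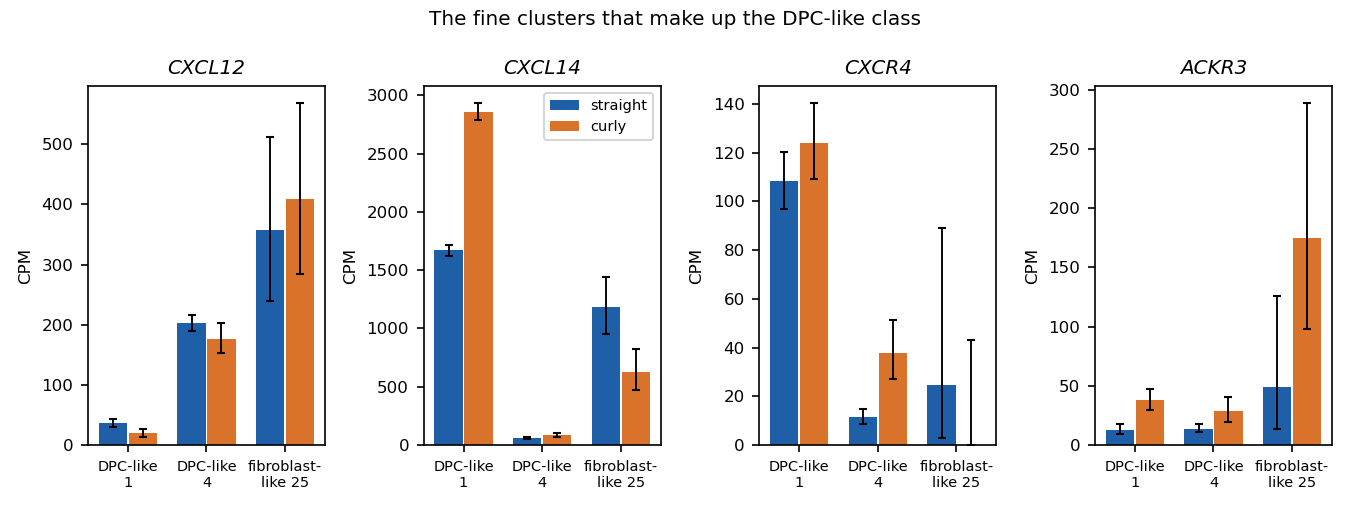
Level (CPM) of CXCL12, CXCL14, CXCR4 and ACKR3 in the fine clusters 1 and 4 (DPC-like) and 25 (fibroblast-like) of each library, with exact Poisson 95% intervals. CXCL12 is higher in cluster 4 than in cluster 1, and CXCL14 and CXCR4 are higher in cluster 1, in both libraries.

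The fibroblast-like cluster 25 was small and shallow, with 47 straight and 52 curly cells at a median of 902 and 851 UMIs. It nevertheless had the highest CXCL12 level of all fine clusters, at 356.9 CPM (239.0 to 512.6) in straight and 408.6 CPM (284.6 to 568.3) in curly. These levels rested on 29 and 35 UMIs. ACKR3 in these cells was at 49.2 CPM (straight) and 175.1 CPM (curly), from 4 and 15 UMIs. CXCR4 was found in 1 straight cell with 2 UMIs and in 0 of 52 curly cells, which allows up to 5.77% of cells with a UMI. At this depth that limit says nothing of cells that express the gene without giving a UMI.

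The KRT6A-rich cells formed an epithelial source of CXCL12. KRT6A is a keratin of the companion layer, the cell layer between the inner and outer root sheath, but the companion layer list held only 2 genes, under the 3 detected markers that a name required. Both were detected in cluster 7 and their score was 2.53, so these cells stayed unnamed because the list was short. The unnamed cluster 16, with 38 straight and 191 curly cells, scored 2.97 on the same list and lacked a name for the same reason. Its straight cells gave 0 CXCL12 UMIs and its curly cells 11, or 5.04 CPM. A high companion layer score therefore did not by itself go with CXCL12. In the fine cluster 10, led by KRT6A, FABP4 and GPX2, CXCL12 was at 175.8 CPM (157.2 to 195.9) in 187 straight cells and 192.6 CPM (182.0 to 203.5) in 381 curly cells. A CXCL12 UMI was present in 54.5% and 82.2% of these cells, but after every cell had been thinned to 1500 UMIs in 29.4% and 24.9%, so the difference between the unthinned shares went with depth. Cells with CXCL12 had a median of 14295 and 20060 UMIs, and cells without it 2304 and 3873.

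Markers of the other CXCL12-positive classes were low in these cells. In the curly cells of cluster 10 with a CXCL12 UMI, the 5 DPC markers summed to 40.4 CPM, compared with 16642 CPM in DPC-like cells. In the straight cells the sum was 181.3 CPM (159.5 to 205.2), compared with 11769 CPM. Cells of cluster 10 without a CXCL12 UMI had a lower sum in straight, at 66.4 CPM (45.4 to 93.8). In curly their sum was 31.0 CPM (17.7 to 50.4). The 7 endothelial markers summed to 4.35 CPM in the straight cells with a CXCL12 UMI, compared with 3198 CPM in endothelial-like cells. ACKR3 gave 3 UMIs in the straight cells of cluster 10 and was found in 0 of 381 curly cells, which allows up to 0.787% of cells with a UMI. CXCR4 was at 21.0 and 33.6 CPM. The neighbouring fine cluster 24, led by LCN2, FGF5 and VDR, held little CXCL12 at 6.21 and 12.7 CPM, and its ACKR3 was 90.01 CPM in the 29 straight cells and 78.0 CPM in the 111 curly ones. Of the 29 ACKR3 UMIs in straight, 17 came from 1 cell, and without the cell with most of them in each library the levels were 39.2 and 68.9 CPM.

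CXCL14 had its highest level in HFSC-like cells, led by LGR5, a receptor that marks stem cells of the follicle, at 10706 CPM (10560 to 10854) in straight and 3640 CPM (3576 to 3705) in curly. The unnamed cluster 9, led by PDPN, BDNF and PTHLH, was at 5364 and 2371 CPM, and the unnamed cluster 2, led by FGFBP1 and DLK2, at 2332 and 1338 CPM. In curly the contractile-like and DPC-like cells, at 3193 and 1857 CPM, stood above cluster 2. The HFSC-like cells held 25.9% and 24.3% of all CXCL14 UMIs. A CXCL14 UMI was found in 97.4% of the straight HFSC-like cells and 97.0% of the curly ones, and in 97.7% and 89.9% after thinning to 1500 UMIs. In endothelial-like cells it was found in 31.3% and 14.5%, at a median of 5306 and 3827 UMIs, and in 9.93% and 5.47% after thinning. At resolution 0.8 part of the class went to fine cluster 13, an outer root sheath (ORS)-like cluster led by PTHLH, SFTPC and KRT17. The ORS-like cluster was at 6905 CPM (straight) and 5148 CPM (curly), and the HFSC-like fine cluster 6 at 8240 and 2816 CPM, so in curly the highest level was then in ORS-like cells. The 115 straight and 65 curly cells that the HFSC-like class shared with cluster 13 were at 12907 and 8312 CPM. The most CXCL14 UMIs in any straight cell, 467, were in a cell of cluster 13, and the most in a straight cell of cluster 6 were 286.

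CXCL14 fell away in the differentiated layers. In suprabasal IFE-like cells it was at 200.2 CPM (straight) and 87.6 CPM (curly), in hair shaft-like cells at 165.0 and 159.9 CPM, and in inner root sheath (IRS)-like cells at 65.4 and 33.7 CPM. Matrix-like cells, the dividing progenitors of the shaft, lay between, at 655.8 and 371.4 CPM. The neighbours at the top of this order were apart beyond counting error in each library.

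A contractile-like cluster, with ACTA2 and MYH11 among its markers, had high CXCL14, at 1928 CPM (1822 to 2037) in 81 straight cells and 3193 CPM (3123 to 3265) in 273 curly cells. The 5 contractile markers summed to 45817 and 40434 CPM in these cells. Basal keratin genes were present as well, and the 5 basal IFE markers summed to 7880 and 9320 CPM. The cluster had 0.464 CXCL14 UMIs per KRT5 UMI in straight and 0.786 in curly, compared with 0.203 and 0.120 over the libraries. This ratio does not measure free RNA where cells express KRT5 themselves, and KRT5 was at 4155 and 4062 CPM here. Endothelial-like cells, with KRT5 at 694.6 and 582.0 CPM, had 0.150 and 0.0994, and pericyte-like cells 0.180 and 0.141. CXCL12 was close to undetected in the contractile-like cells, with 1 and 3 UMIs.

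CXCR4 was spread over vessels, DPC-like cells, immune cells and gland. In straight it was highest in endothelial-like cells, at 123.3 CPM (105.0 to 143.9), followed by pericyte-like cells at 57.7 CPM and DPC-like cells at 49.6 CPM. Of the 161 straight CXCR4 UMIs in endothelial-like cells, 43 lay in 1 cell. In curly DPC-like cells led at 91.4 CPM (81.2 to 102.5), with immune-like cells at 73.6 CPM and endothelial-like cells at 53.2 CPM. The intervals of DPC-like and immune-like cells overlapped, as did those of immune-like and endothelial-like cells. At the finer resolution the highest level was in macrophage and dendritic cell-like cells, at 311.5 CPM in 18 straight cells and 134.0 CPM in 20 curly cells. Sebaceous-like cells had 120.2 and 119.3 CPM in 52 and 19 cells. IRS-like cells had 0.589 and 2.41 CPM, from 1 and 17 UMIs.

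The immune-like class as a whole reached 37.6 CPM of CXCR4 in straight but 73.6 CPM in curly, a log2 ratio of 0.97 (0.19 to 1.71). The class was a mixture in unequal shares. Mast cell-like cells numbered 283 of the 301 straight cells and 72 of the 92 curly cells. Their CXCR4 was at 6.38 and 17.7 CPM from 7 and 3 UMIs, and the 3 curly UMIs lay in 1 cell. In the macrophage and dendritic cell-like cells, the log2 ratio was −1.22 (−2.06 to −0.42), opposite in sign to that of the class. The summed level of 5 macrophage and dendritic cell markers in the class was 275.7 CPM in straight and 981.4 CPM in curly.

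ACKR3 reached its highest levels in epithelial clusters in straight. It was highest in cycling-like cells at 69.4 CPM (59.3 to 80.8), followed by cluster 2 at 49.8 CPM, suprabasal IFE-like cluster 5 at 45.1 CPM and cluster 9 at 36.7 CPM. In curly the mesenchymal and vascular cells came first, with endothelial-like cells at 48.6 CPM (35.0 to 65.7), pericyte-like cells at 45.2 CPM and DPC-like cells at 38.3 CPM. Neighbours in the curly order overlapped throughout these first places. This order is that of the 20 clusters. At resolution 0.8 the fibroblast-like cluster 25 came first in curly, and the unnamed cluster 24 followed, above endothelial-like cells. Of the 843 curly ACKR3 UMIs, DPC-like cells held only 122, endothelial-like cells 42 and pericyte-like cells 31. The log2 ratio of curly over straight was 0.56 (−0.09 to 1.21) in endothelial-like cells and 0.65 (−0.38 to 1.79) in pericyte-like cells, with intervals that spanned 0. In endothelial-like cells, where the ligand and both receptors were detected, ACKR3 was found in 13.1% of the straight cells with CXCL12 and 12.04% of those without it, and in 1.69% and 16.8% of the curly cells.

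The comparison of curly with straight wool asked whether the chemokines differ in the follicle cells of both wool types. Over all cells, CXCL14 was lower in curly, at 657.3 against 1357 CPM, a log2 ratio of −1.05 (−1.06 to −1.03). ACKR3 was lower as well, at 10.9 against 24.0 CPM (−1.15, −1.27 to −1.02), and CXCR4 was at 16.9 against 21.8 CPM (−0.37). CXCL14 and ACKR3, 2 of the 4 genes, were at least 2-fold lower, a fold passed by 6.90% of the 13196 genes with at least 100 UMIs. The median log2 ratio of those genes was −0.18, so the libraries also differed by a general shift.

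CXCL14 was lower in curly in most clusters. Of the 18 clusters with at least 25 cells in each library, 13 had an interval entirely below 0 and 2 entirely above 0. The 13 included endothelial-like cells (−0.85) and immune-like cells (−0.61), which are not keratinocytes. All clusters came from the same 2 libraries and shared their free RNA, so they are not replicates of this difference. Endothelial-like cells had 0.150 and 0.0994 CXCL14 UMIs per KRT5 UMI, under the 0.203 and 0.120 of the libraries. The share of all genes with an interval below 0 was not counted. HFSC-like cells had a log2 ratio of −1.56 (−1.59 to −1.52), a 2.94-fold lower level in curly. Among genes with at least 100 UMIs in this class, 5.44% of 4722 were at least 2-fold lower. The class joined fine clusters 6 and 13, and within it the ratio was −1.55 in cluster 6 and −0.63 in the ORS-like cluster 13. HFSC-like cells with an LGR5 UMI had −1.17. All of these were in one direction, but their size varied with the cells taken. In cluster 9, where both CXCL14 (−1.18) and ACKR3 (−1.23) were past the fold, the background was 3.09%, and in suprabasal IFE-like cluster 4, with ratios of −1.55 and −1.67, it was 5.12%. In cycling-like cells the ratios were −1.33 and −1.46 with a background of 6.06%. KRT5 was also lower in cluster 4, with 12621 CPM in straight and 4867 CPM in curly, a ratio of −1.37. Its ratio was −0.50 in HFSC-like cells, −0.03 in cluster 9 and 0.18 in cycling-like cells. The part of KRT5 in these results was not tested. CXCL14 in sweat gland luminal-like cells had a ratio of −2.85 (−3.56 to −2.21) with a background of 2.73%, but 118 of its 191 straight UMIs lay in 1 cell. Without the cell with most CXCL14 in each library the ratio was −1.61 (−2.40 to −0.88), and without the highest doublet scores it was −0.47 (−1.40 to 0.43). After thinning, 7.95% of the straight and 9.09% of the curly cells had a CXCL14 UMI.

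Among the 18 clusters, CXCL14 had an interval entirely above 0 in DPC-like and contractile-like cells, and one that spanned 0 in 3 others. At resolution 0.8 the unnamed fine cluster 16, with KRT5 at 7522 and 9950 CPM, was also higher in curly. Its CXCL14 was at 1198 and 1393 CPM, a log2 ratio of 0.22 (0.12 to 0.32). DPC-like cells went from 705.0 CPM in straight to 1857 CPM in curly, a log2 ratio of 1.40 (1.34 to 1.45). Within each fine cluster the ratio was smaller, at 0.78 (0.72 to 0.83) in cluster 1 and 0.49 (0.14 to 0.83) in cluster 4. Contractile-like cells had a ratio of 0.73 (0.64 to 0.82). KRT5 in DPC-like cells was also higher in curly, at 791.3 CPM against 497.3 CPM in straight, and its part in the result was not tested.

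ACKR3 in DPC-like cells had a log2 ratio of 1.48 (1.09 to 1.86) and CXCR4 of 0.88 (0.66 to 1.11). CXCL14 and ACKR3 were thus 2 of 4 genes at least 2-fold higher in curly, against 2.81% of 7013 genes, and none was at least 2-fold lower, against 4.91%. ACKR3 was higher within both DPC-like fine clusters, at 1.57 (0.99 to 2.16) in cluster 1, where the background was 2.56%, and at 1.05 (0.39 to 1.69) in cluster 4. CXCR4 had a ratio of 0.20 (−0.05 to 0.44) in cluster 1 and of 1.74 (1.12 to 2.36) in cluster 4. In HFSC-like cells ACKR3 had 29.9 CPM in straight but 7.05 CPM in curly, with a ratio of −2.09 (−2.84 to −1.37) from 57 and 24 UMIs. Within the class the ratio was −2.27 (−3.51 to −1.09) in fine cluster 6, −0.70 (−1.73 to 0.23) in the ORS-like fine cluster 13 and −1.18 (−2.74 to 0.54) in cells with an LGR5 UMI.

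CXCL12 in DPC-like cells was lower in curly, with a log2 ratio of −0.74 (−0.93 to −0.54), which did not pass 2-fold. The fine clusters differed in this. Cluster 4, which held 54.8% of the straight library's CXCL12 UMIs, had a ratio of −0.19 with an interval of −0.43 to 0.03, so no difference was resolved at this depth in the cells with most CXCL12. Cluster 1, with less CXCL12, had −0.92 (−1.48 to −0.39). In the KRT6A-rich cluster 7 the ratio was 0.07 (−0.10 to 0.25), and in endothelial-like cells it was 0.43 (0.14 to 0.72). CXCR4 in endothelial-like cells had a ratio of −1.21 (−1.72 to −0.73), with a background of 2.00% of 2448 genes at least 2-fold lower. Of its 161 straight UMIs there, 43 lay in 1 cell.

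**Figure D4:**
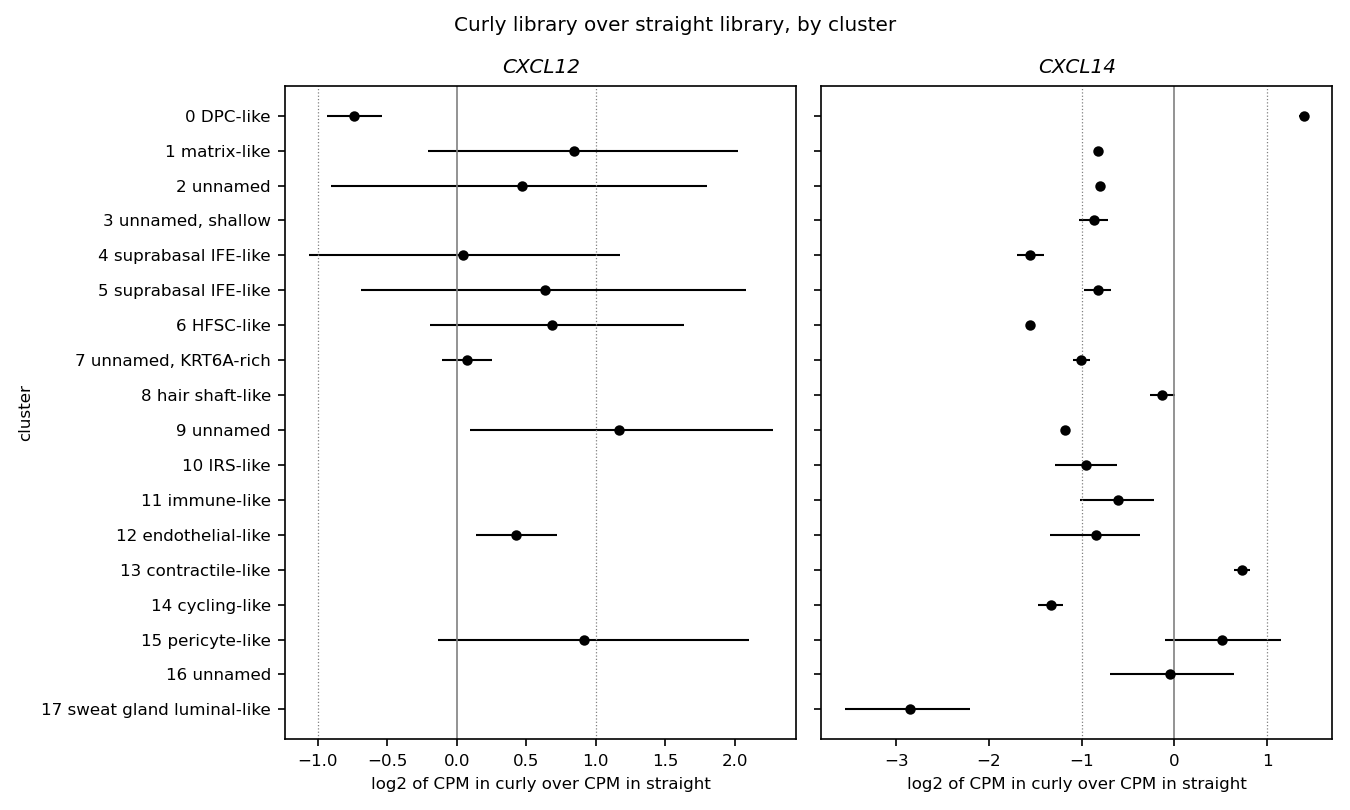
Log2 ratio of the curly over the straight level of CXCL12 and CXCL14 in clusters with at least 25 cells in each library and at least 20 UMIs of the gene, with exact 95% counting intervals. The dotted lines mark 2-fold. CXCL12 ratios mostly have intervals that span 0, while CXCL14 intervals lie below 0 in 13 clusters and above 0 in DPC-like and contractile-like cells.

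Of the 58 chemokines and receptors listed, 34 were in the table and 22 had at least 100 UMIs. Vessels held the most varied set. In endothelial-like cells CCL14, a plasma chemokine, had 1149 CPM in straight cells and 3019 CPM in curly cells. CCL21, a homing signal of lymphatic vessels, was at 37.5 and 1104 CPM. The interferon-induced CXCL9 was at 0.766 and 291.6 CPM, and CXCL10 at 23.7 and 180.5 CPM. Single cells held much of the straight counts, with 28 of 31 CXCL10 UMIs and 32 of 49 CCL21 UMIs in 1 cell each. The scavenging receptor ACKR1 was at 113.3 and 370.3 CPM. Apart from the 4 genes followed here, 5 of the 8 listed genes with at least 100 UMIs in endothelial-like cells were at least 2-fold higher in curly and 1, CXCL8, was lower, beside a background of 4.62% and 2.00%. The 4 lymphatic endothelial markers summed to 9.96 CPM (straight) and 112.2 CPM (curly) in the same cells, and their part in the result was not tested.

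In DPC-like cells, CCL26, a ligand of CCR3, was at 97.6 and 208.9 CPM, and 2 of 3 further listed genes, CCL26 and CX3CL1, were at least 2-fold higher in curly, beside a background of 2.81%. CCL26 was close in straight between the fine clusters, at 91.4 CPM in cluster 1 and 101.0 CPM in cluster 4. In curly it was at 105.2 and 400.5 CPM. Immune-like cells held CXCL8, which draws neutrophils, at 1323 and 6646 CPM, and CCL22 at 25.4 and 1073 CPM. These were the 2 of 4 listed genes at least 2-fold higher there, beside a background of 7.19%. Both lay in the macrophage and dendritic cell-like cells, which were 18 of 301 straight and 20 of 92 curly cells of the class. Within them CXCL8 was at 12858 and 13831 CPM and CCL22 at 247.6 and 2234 CPM, while KRT5 was at 287.5 and 3408 CPM. Of the straight UMIs of the class, 844 of 1617 for CXCL8 and 29 of 31 for CCL22 were in 1 cell each. CXCL16 was also highest in immune-like cells, at 175.9 and 322.0 CPM. All 105 straight UMIs of XCL1 in these cells came from 1 cell, as did 26 of the 27 curly ones.

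The epidermal chemokines had places of their own. CCL20 was highest in suprabasal IFE-like cluster 5, with 291.0 CPM (straight) and 200.9 CPM (curly), and so was ACKR4, a scavenger of CCL19 and CCL21, in straight, at 56.5 CPM, with 106.5 CPM in curly. CX3CL1, a membrane-bound chemokine, was highest in cluster 9, at 96.9 and 85.7 CPM. The other listed genes past 100 UMIs were at lower levels. Among CXCL1, CXCL11, CCL25 and CXCR2 no level exceeded the 13.9 CPM of CXCR2 in straight immune-like cells, counting clusters with at least 25 cells in each library. CCL5 reached 54.4 CPM in straight endothelial-like cells, where 1 cell held 48 of its 71 UMIs.

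**Figure D5:**
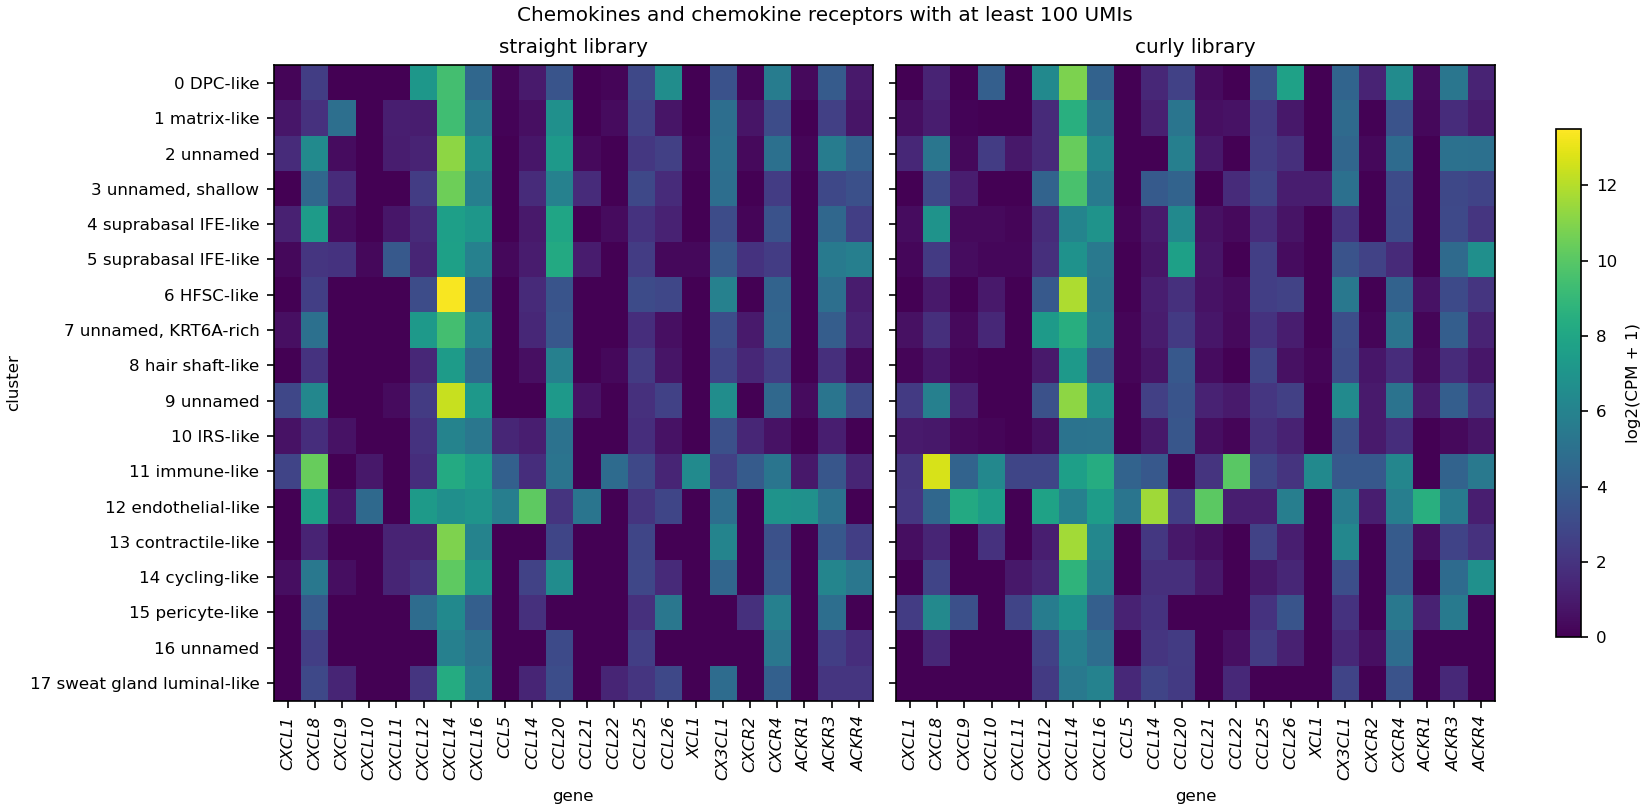
Levels, as log2(CPM + 1), of the 22 listed chemokines and receptors with at least 100 UMIs in the clusters with at least 25 cells in each library, straight on the left and curly on the right. Read down a column, CCL14, CCL21 and ACKR1 mark endothelial-like cells, CXCL8 and CCL22 immune-like cells, and CXCL12 the endothelial-like, DPC-like and KRT6A-rich cells.

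All 22 genes listed for the wider CXCL12 pathway were in the table and 21 had at least 100 UMIs. In DPC-like cells 12 of them had at least 100 UMIs, of which MIF, another ligand of CXCR4, was at least 2-fold higher in curly and RGS16, a regulator of G protein signalling, at least 2-fold lower, beside a background of 2.81% and 4.91%. Their median log2 ratio was −0.33, compared with −0.06 over all genes of the class. In HFSC-like cells none of 10 passed the fold, beside a background of 2.37% higher and 5.44% lower, with a median of −0.29 compared with −0.22 over all genes. DPP4, the protease that inactivates CXCL12, was highest in matrix-like cells at 118.9 and 141.3 CPM. SDC1, a heparan sulfate proteoglycan, was highest in the KRT6A-rich cluster 7 at 727.1 and 674.6 CPM, and SDC4 in straight in cluster 9 at 1677 CPM, with 1132 CPM in curly.

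CD74, a receptor of MIF, was at 2081 and 7020 CPM in the immune-like class. Within the macrophage and dendritic cell-like cells, which held nearly all of it, CD74 was at 20277 and 14591 CPM. KRT5 in the same cells was at 287.5 and 3408 CPM. RGS1 was at 1086 and 1537 CPM in the immune-like class. GNAI2, which encodes a G protein subunit that couples to CXCR4, was at 169.2 and 130.8 CPM in endothelial-like cells. RGS16 was highest in pericyte-like cells, at 450.9 and 562.4 CPM, and RGS2 in contractile-like cells, at 476.9 and 1863 CPM.

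The genes with the profile most like CXCL12 over 18 clusters, by Pearson's r of log2(CPM + 5), were genes of vessels and mesenchyme. SLC9A3R2 had r of 0.82 in straight and 0.91 in curly, followed by CPNE2 (0.78 and 0.87), TCF4 (0.78 and 0.78), ELN (0.76 and 0.74) and CALML4 (0.77 and 0.74), among 9922 genes ranked by the lower of both libraries. SLC9A3R2 reached 309.4 and 238.4 CPM in endothelial-like cells but only 10.8 and 22.1 CPM in the KRT6A-rich cluster, so it did not follow CXCL12 there. The genes most like CXCL14 were ISM1 (0.87 and 0.85), DST (0.85 and 0.86), PTPRS (0.84 and 0.88), LAMB3 (0.85 and 0.84) and PDPN (0.82 and 0.82). DST and LAMB3 encode parts of the attachment of basal keratinocytes to the basement membrane. In DPC-like cells CXCL14 was at 705.0 and 1857 CPM, but ISM1, LAMB3 and PDPN did not follow it there. ISM1 was at 3.75 and 7.23 CPM, LAMB3 at 6.13 and 8.48 CPM and PDPN at 2.63 and 4.40 CPM. DST was at 30.2 and 15.1 CPM and PTPRS at 21.9 and 20.4 CPM. Clusters of one library share its free RNA and are not replicates, so these values only describe the profiles.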

How the data were processed

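Single-cell RNA-seq of skin from straight and curly wool lambs was analysed, with 1 library of 3 pooled lambs per wool type. UMIs had been counted by the authors on the genome Oar_rambouillet_v1.0, with Cell Ranger 3.0.2 per the submitters' processing notes. Each deposited value is on a natural log scale, ln(1 + x) with x the UMIs per 10000 of the cell, as the values themselves show. Counts had been planned for, so UMIs were calculated back, and 100% came out whole within 0.01 (largest deviation 0.00304).

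Cells with at least 200 genes were kept, which removed 0 cells. Libraries were integrated by anchors in Seurat 5.3.0 (R 4.3.3) on 2000 variable genes and 30 dimensions, without the listed chemokine genes, and clustered at the lowest resolution in steps of 0.1 giving at least 19 clusters. A cluster was named from markers at a mean log2 score of at least 1.5 (5 CPM added) with 3 markers in at least 10% of its cells. Scrublet in scanpy 1.11.5 called 1.05% of straight and 0.0264% of curly cells, which is too few for a working call. Doublets were therefore kept, and the highest 6% of scores were left out as an alternative. Tables and plots used pandas 2.3.3, matplotlib 3.10.9, scipy 1.17.1 and numpy 2.4.6 under Python 3.11.15.

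UMIs were summed per cluster and library. For a gene without UMIs, 3 counts set the upper limit, which in a full library is 0.0518 (straight) or 0.0386 (curly) CPM. Ratios have the exact interval of the binomial split, and no test between wool types was made. Steps were tested on simulated data. The genes named were CXCL12, CXCL14, CXCR4, ACKR3, listed genes with at least 100 UMIs, the 5 genes most like each ligand among those with at least 200 UMIs per library, cell type markers and keratins as measures of free RNA. FGF7, EDN3, HHIP and other leading genes of clusters were named after their values had been seen. The members and lists were chosen with earlier results of these data known. Positions and sequences of the genes were not used here.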

Additional observations from a re-analysis of the deposited data

Results flagged for a closer look

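The log2 ratio of curly over straight took opposite signs in different classes for each of the 4 genes. With 1 library per wool type these differences between classes were not tested. The highest and the lowest ratio are given among classes with at least 25 cells in each library, at least 100 UMIs of the gene and an interval on one side of 0. For CXCL12 it was 0.43 in endothelial-like cells and −0.74 in DPC-like cells. The endothelial-like ratio is that of summed UMIs, and the mean of CPM over these cells went the other way, at 321.0 in straight and 244.9 in curly. For CXCL14 it was 1.40 in DPC-like cells and −2.85 in sweat gland luminal-like cells, where 1 straight cell held 118 of 191 UMIs and the ratio without the cell with most UMIs in each library was −1.61. For CXCR4 it was 0.88 in DPC-like cells and −1.21 in endothelial-like cells, where 1 straight cell held 43 of 161 UMIs. For ACKR3 it was 1.48 in DPC-like cells and −1.46 in cycling-like cells. The 2 DPC-like fine clusters took unequal shares of the libraries, with 46.9% of straight and 27.5% of curly cells in fine cluster 4, and the pairing of DPC-like cells across libraries rested on the integration.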

How the results depend on the processing

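No paired analysis was possible because each wool type had 1 library. Of 36 log2 ratios of curly over straight under other settings, 24 stayed within the counting interval of the reported ratio, 12 moved out of it and none changed sign. Of 18 under settings chosen after seeing the data, 9 stayed within it, 8 moved and 1 changed sign. For CXCL12 in DPC-like cells (−0.74), the log2 ratio was −0.31 under a stricter minimum of genes per cell and −0.19 in fine cluster 4 alone. For CXCL14 in HFSC-like cells (−1.56) it was −1.51 under this minimum, −0.90 without integration, −1.38 as a mean over cells, −1.34 scaled by the median ratio, −1.17 in cells with an LGR5 UMI and −0.63 in fine cluster 13. For CXCL14 in DPC-like cells (1.40) it was 1.88 under this minimum, 1.47 without the highest doublet scores, 0.96 as a mean over cells, 1.46 scaled by the median ratio, 0.78 in fine cluster 1 and 0.49 in fine cluster 4. For ACKR3 in HFSC-like cells (−2.09) it was −1.18 with an LGR5 UMI and −0.70 in fine cluster 13. For CXCR4 in immune-like cells (0.97) it was −1.22 in fine cluster 29, the macrophage and dendritic cell-like cells. The class is a mixture of these and mast cell-like cells in unequal shares. The causes of these changes were not tested. Thinning lowered the share of DPC-like cells with a CXCL12 UMI from 36.9% to 14.0% in straight and from 18.2% to 9.18% in curly. Of the 5 genes most like CXCL12 and CXCL14, 2 and 3 remained at resolution 0.8, 3 and 3 with 1 CPM added and 4 and 4 with 20 CPM added. Depth limited the receptors, with 1263 and 1313 CXCR4 UMIs and 1393 and 843 ACKR3 UMIs in the whole straight and curly library. CXCL14 in sweat gland luminal-like cells (−2.85) was −3.79 under the stricter minimum, −0.47 without the highest doublet scores, −1.79 as a mean over cells and −1.61 without the cell with most UMIs in each library, which left the other 5 ratios within their intervals.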
